A study of Mus musculus with 17 samples.

Results

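The dystrophin-glycoprotein complex was followed here through 8 genes, Dmd, Utrn, Dag1, Sgca, Sgcb, Sgcd, Sgce and Dtna, in the remote, non-infarcted left ventricle of mice. All probes that the annotation of the array assigns to these symbols were taken, which gave 25 of 45281 probes, and the 8 genes stand among 19057 genes with a probe of 1 symbol. Of the 8 genes, 5 (Dag1, Sgca, Sgcb, Sgcd and Dtna) had a probe above the filter on dim probes, together with 8231 other genes, and 3 (Dmd, Utrn and Sgce) had none. The genes were proposed by name, not by a rule on their values, though earlier results of these data were known.

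The complex spans the membrane of the muscle cell and links the actin cytoskeleton to the laminins of the basement membrane. Dystrophin, or its relative utrophin, binds actin inside the cell and dystroglycan at the membrane, dystroglycan binds laminin outside through its sugar chains, and the sarcoglycans form a subcomplex beside it. Loss of some single components can cause muscular dystrophy in humans, in some cases with cardiomyopathy, and a weakened complex leaves the heart muscle membrane more fragile under mechanical load.

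All mice were female, of the strain labelled C57/BL6 (C57BL/6N in the methods), with an age given as 8 to 10 weeks. The methods give that age where they describe the mice bought for the study. Hearts of every group were taken 4 weeks after surgery. MI+Val mice (5 arrays) had their left anterior descending coronary artery ligated and then received the angiotensin receptor blocker valsartan at 1 mg/kg/day in drinking water for 4 weeks. MI mice (6 arrays) had the same ligation and drank water only, and sham mice (6 arrays) underwent sham surgery. Only infarcted mice whose ejection fraction lay between 35 and 45% at 24 hours were kept, so that hearts outside that range are not represented. The tissue was the posterior and inferior free wall, which holds several cell types. In such bulk tissue fewer muscle cells and less RNA per muscle cell cannot be told apart. RNA was hybridised to MouseWG-6 BeadChips, on which the brightness of the beads reports the abundance of a transcript.

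Median bead signal per array was 96.4 to 117 in MI+Val, 90 to 120.3 in MI and 104.7 to 115.2 in sham mice, and precision is set by how few arrays each group has. The arrays were spread over 3 chips, unevenly by group. Chip 1 held 1 MI+Val, 4 MI and 1 sham array, chip 2 held 2 MI+Val, 1 MI and 3 sham arrays, and chip 3 held 2 MI+Val, 1 MI and 2 sham arrays. Values with chip as a block are therefore given beside the calls that such a block ended and beside Sgca. Bead signal was corrected for background, quantile normalized and taken to log2, and a gene was represented by its most variable probe above the filter. The groups were compared in 1 limma model, called at an adjusted p under 0.05 over 8236 genes. The sample labels do not tie replicate numbers to separate cages or days, and p-values measure only the spread between these arrays.

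No member differed between any pair of groups at the adjusted threshold when 1 probe stood for each gene. Between MI and sham, 0 of 5 measured members passed, where 5.63% of all genes did, and 1 of 5, Sgca, had an unadjusted p under 0.05, where 19.7% of all genes did. Between MI+Val and MI, 0 of 5 passed (0% of all genes) and 0 of 5 had an unadjusted p under 0.05 (9.23% of all genes). Between MI+Val and sham, 0 of 5 passed (0.0121% of all genes, 1 gene) and 1 of 5, Sgcb, had an unadjusted p under 0.05 (7.25% of all genes). The F test over the 3 groups, called at an adjusted p under 0.10, took none of the 5 and 4.8% of all genes. The median log2 difference of the 5 members was 0.01 for MI minus sham, 0.13 for MI+Val minus MI and 0.09 for MI+Val minus sham, beside -0.01, 0.004 and -0.003 over all genes.

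**Figure D1:**
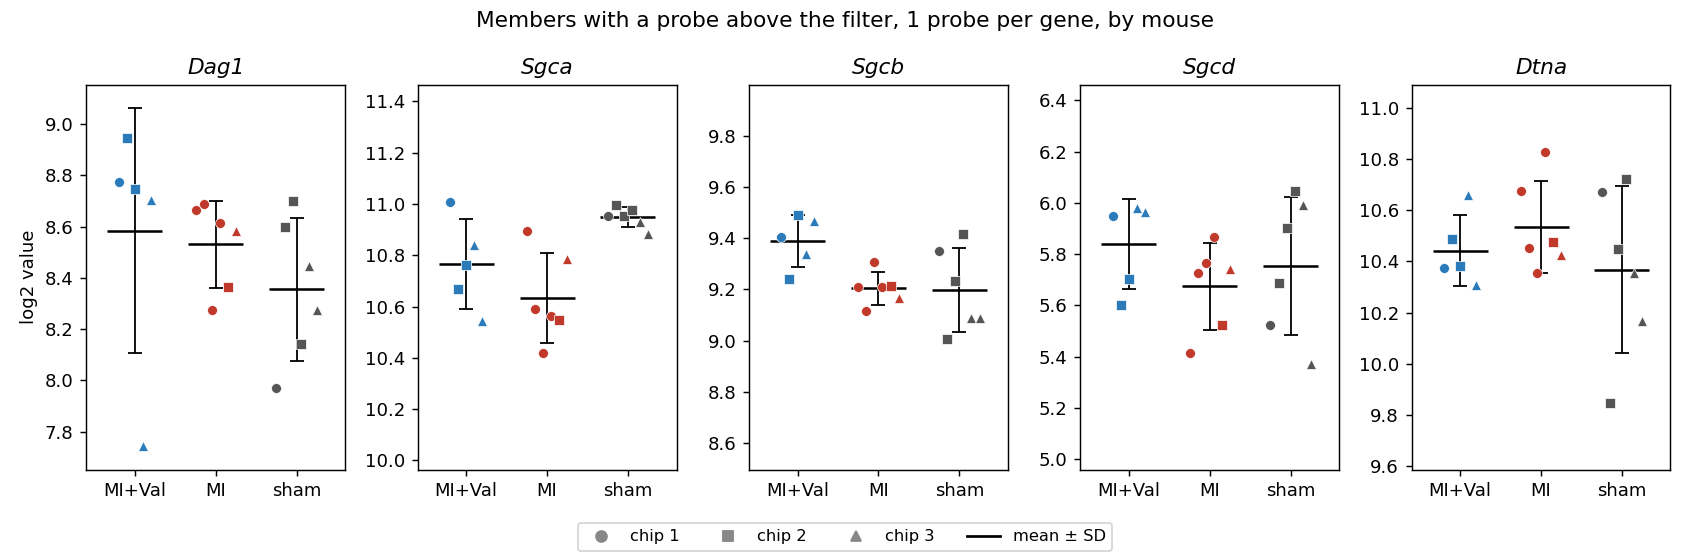
Normalized log2 value of the probe that stood for each of the 5 measured members (y axis, 1 panel per gene, all axes spanning the same range) in MI+Val, MI and sham mice (x axis). Points are mice, their shape gives the chip, and lines are the mean ± SD; in the Sgca panel the sham mice lie close together and most MI mice lie below them, and in the other panels MI and sham mice overlap.

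Sgca, which encodes alpha-sarcoglycan, the sarcoglycan restricted to striated muscle, was the member with the smallest p. Its representing probe, ILMN_1248215, read 11.01, 10.67, 10.76, 10.84 and 10.54 in the 5 MI+Val mice. In MI mice it read from 10.42 to 10.90 with a median of 10.58, and in sham mice from 10.884 to 10.997 with a median of 10.95. One MI mouse, replicate 1, reached the sham range, and the sham mice spread far less than the others. MI minus sham was -0.32 on the log2 scale, a fold of 0.804 (standard error 0.095, 95% interval -0.51 to -0.12), with an adjusted p of 0.0578 in limma, just short of the threshold. Of 8236 genes, 508 had a smaller p. With chip as a block the difference was -0.35 (adjusted p = 0.113), and within the 3 chips it was -0.34, -0.43 and -0.12. On each chip either MI or sham had only 1 array.

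The call on Sgca turned on the setting. Of 14 other settings, each of which changed 1 step of the processing or the model, 8 gave an adjusted p under 0.05 and 6 did not, and all 14 put MI below sham. The smallest was 0.0193, with the brightest probe of each gene, and the largest 0.333, with scaling of the arrays to a common 75th percentile, which gave a difference of -0.22. The mean of the 3 probes gave -0.29 (adjusted p = 0.0194), and the log2 values that the authors deposited gave -0.28 (adjusted p = 0.0309). When 1 mouse at a time was left out, 4 of 17 fits passed, those without MI mouse 1 or 6 and those without MI+Val mouse 1 or 5, and the adjusted p ranged between 0.0325 and 0.133.

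**Figure D2:**
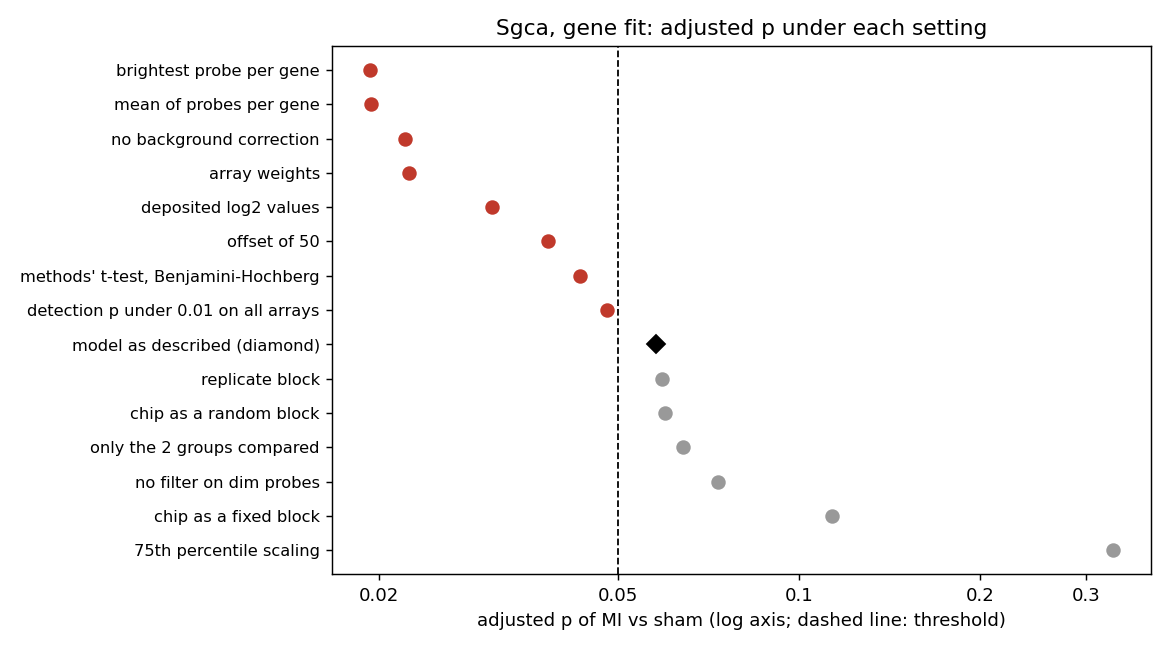
Adjusted p of the Sgca difference between MI and sham (x axis, log scale) under the model as described (diamond) and 14 other settings (y axis). Points left of the dashed line at 0.05 passed, which 8 settings did and 6 did not, and the model as described stands at 0.0578.

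Sgca has 3 probes, all above the filter, and each was tested in a second limma model over every probe of the array. ILMN_2938154 is singled out because it was the only member probe called, so it was chosen after its values were seen. It read 11.40, 11.06, 11.15, 10.98 and 10.90 in MI+Val mice. In MI mice it read from 10.70 to 11.12 with a median of 10.90, and in sham mice from 11.17 to 11.37 with a median of 11.26. All MI mice lay below all sham mice, while MI+Val mice overlapped both groups.

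For ILMN_2938154, MI minus sham was -0.37 (standard error 0.081, 95% interval -0.54 to -0.20), with an adjusted p of 0.0356 over all 45281 probes and 0.0234 over the 11897 probes above the filter. It was the 1 member probe called lower in MI, where 0.351% of every probe of the array was called lower in MI. Among the probes above the filter, 1 of 10 member probes was called lower, where 2.03% of all such probes were, and 1.36% of the probes above the filter had all MI mice below all sham mice. With chip as a block the difference was -0.45 (adjusted p = 0.0209). Within the 3 chips it was -0.34, -0.62 and -0.30, a direction that the separation of the groups already fixes. Each chip again held only 1 array of MI or of sham. The call was lost in 10 of the 17 fits that left out 1 mouse, those without MI mouse 1, 2, 4, 5 or 6 or sham mouse 1, 2, 3, 4 or 5, with adjusted p up to 0.081. Scaling to the 75th percentile also ended it (-0.40, adjusted p = 0.116), as did the methods' t-test after adjustment (-0.37, adjusted p = 0.0564).

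The other Sgca probes had the same direction. ILMN_1248215 had -0.32 for MI minus sham in this second model (adjusted p = 0.0826). ILMN_1222601 read 8.45, 8.54, 8.85, 8.50 and 8.74 in MI+Val mice, from 8.35 to 8.85 in MI mice with a median of 8.51, and from 8.53 to 8.99 in sham mice with a median of 8.74. Its groups overlapped, and MI minus sham was -0.20 (95% interval -0.40 to 0.01, adjusted p = 0.508). Over the 17 arrays ILMN_2938154 correlated at r = 0.73 with ILMN_1248215 and at r = 0.35 with ILMN_1222601, and with the group means removed these were 0.40 and -0.01, as a description over arrays that share chips.

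In MI+Val mice the mean of each of the 3 Sgca probes lay between the means of MI and sham mice. MI+Val minus MI was 0.20 for ILMN_2938154 (95% interval 0.02 to 0.38, adjusted p = 0.732), 0.13 for ILMN_1248215 (adjusted p = 0.849) and 0.06 for ILMN_1222601 (adjusted p = 0.946) in the model over every probe. MI+Val minus sham was -0.17, -0.18 and -0.13 in the same order of probes, with adjusted p of 0.881, 0.858 and 0.953. None passed, and the MI arrays serve in both comparisons. Within the 3 chips, MI+Val minus MI for ILMN_2938154 was 0.45, 0.40 and 0.04. It was 0.39, 0.17 and -0.10 for ILMN_1248215 and -0.19, 0.35 and 0.19 for ILMN_1222601. Both of these changed sign between chips, but on each chip either MI+Val or MI had only 1 array.

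**Figure D3:**
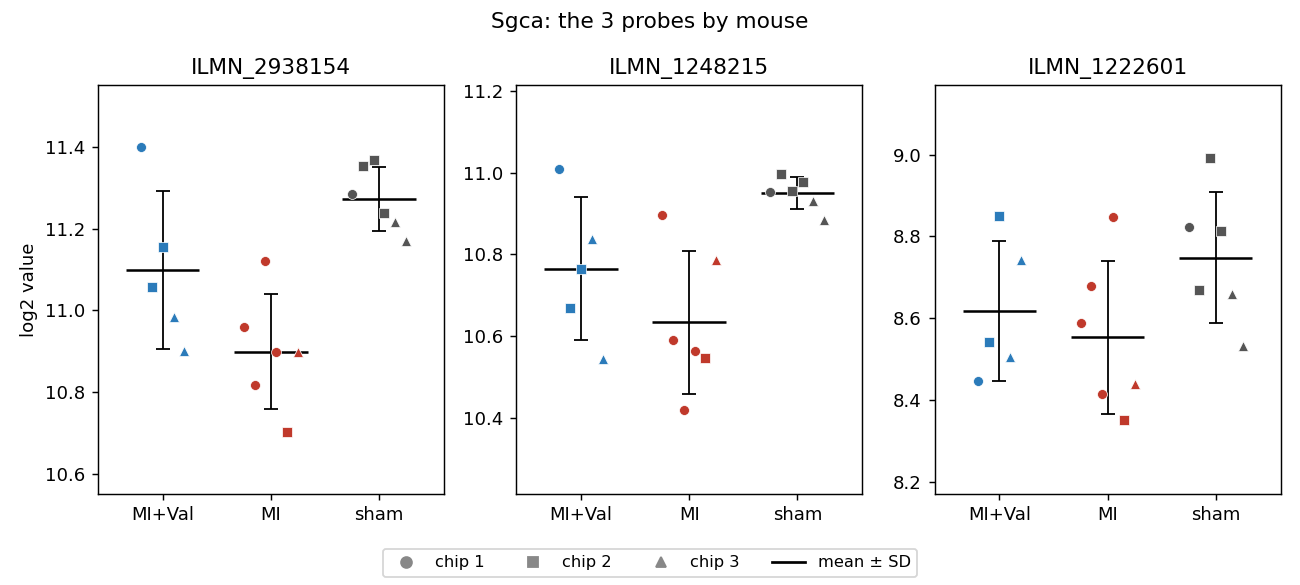
Normalized log2 value of each Sgca probe (y axis, 1 panel per probe, each axis spanning 1 log2 unit) in MI+Val, MI and sham mice (x axis), with points for mice, shapes for chips and lines for the mean ± SD. For ILMN_2938154 the highest MI mouse, at 11.12, lies under the lowest sham mouse, at 11.17, and for ILMN_1222601 the groups overlap.

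Levels of cell type markers are set beside the Sgca difference, and their part in it was not tested. Of 7 measured cardiomyocyte markers, 0 passed between MI and sham, where 5.63% of all genes did in either direction. An unadjusted p under 0.05 was reached by 3, where 19.7% of all genes did so. The median of the 7 was -0.30, ranging between -0.43 and 0.04, or -0.20 with chip as a block. Of the 3, Myh6 gave between -0.43 and 0.09 over its probes above the filter. Atp2a2 gave between -0.38 and -0.03, while Pln had 1 probe (-0.43). The summed level of the 7, on the linear scale, was 42560 to 45301 in MI+Val, 37672 to 44804 in MI and 40024 to 46670 in sham mice. MI and sham overlapped widely. On that scale the brightest genes weigh most, Myl2 (0.04 for MI minus sham) and then Actc1 (-0.02), so the sum says little of the dimmer markers. Macrophage markers rose in MI against sham for 4 of 7, where 5.63% of all genes were called in either direction. Their median difference was 0.54, with summed levels of 3739 to 5310 in MI+Val, 4532 to 7904 in MI and 2857 to 4094 in sham mice. Under a chip block 1 of these 4 calls held, that of Lyz2, and the median was 0.49. Of 7 measured fibroblast markers, Tcf21 alone passed (0.70, adjusted p = 0.0103), a chip block ended that call (0.64, adjusted p = 0.0649), and the median of the 7 was 0.40, or 0.30 with the block. Of 5 skeletal muscle markers, 2 were above the filter, both of them dim. Tnni2, fast troponin I, fell by 0.81 in MI against sham (adjusted p = 0.0338, or 0.105 under a chip block), with means of 5.89 and 6.70. The other, Mylpf, had -0.21 (adjusted p = 0.640), with means of 5.77 and 5.98.

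The promoter of Sgca is shown because Sgca was the member nearest to a difference, and that of Sgcb beside it as a partner of the same subcomplex whose MI minus sham difference was 0.01. RefSeq sequences of the build GRCm38.p6, from 250 bases before to 50 bases after the annotated start, were at hand for 6 of the 8 members. Both are on the minus strand, Sgca at chr11:94976278-94976577 and Sgcb at chr5:73647688-73647987. Capitals mark each E-box, the letters CANNTG read on both strands, to which factors of muscle differentiation such as MyoD bind.
Sgca: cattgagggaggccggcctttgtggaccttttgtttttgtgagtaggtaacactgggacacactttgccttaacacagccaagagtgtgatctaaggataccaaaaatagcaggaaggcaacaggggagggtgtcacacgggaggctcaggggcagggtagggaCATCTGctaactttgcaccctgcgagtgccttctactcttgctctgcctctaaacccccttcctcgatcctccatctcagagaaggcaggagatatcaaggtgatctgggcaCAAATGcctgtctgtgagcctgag
Sgcb: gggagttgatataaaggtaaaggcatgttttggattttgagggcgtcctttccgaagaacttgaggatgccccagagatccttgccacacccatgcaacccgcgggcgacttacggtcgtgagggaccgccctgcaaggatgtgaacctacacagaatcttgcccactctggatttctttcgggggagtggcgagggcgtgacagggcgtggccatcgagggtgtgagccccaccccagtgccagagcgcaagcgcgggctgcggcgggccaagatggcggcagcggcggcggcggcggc
The Sgca sequence holds 2 E-boxes, 86 bases before and 26 bases after the start, and the Sgcb sequence holds 0. Members without a called difference hold them too, 2 in Sgcd and 1 in each of the 2 Dag1 entries. Among the members below the filter, Utrn holds 7 and the 2 Dmd entries hold 3 and 0. Of 32851 promoters of this length, 72.3% hold an E-box, so that most promoters share these letters. The GC box GGGCGG, read on both strands, occurs 0 times in the Sgca and 1 time in the Sgcb sequence, and in 35.7% of all promoters. A match is a description of the letters, not of binding in these hearts.

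Sgcb encodes beta-sarcoglycan, which assembles first in the subcomplex with delta-sarcoglycan. Its representing probe, ILMN_1255256, read 9.40, 9.24, 9.49, 9.34 and 9.47 in MI+Val mice. In MI mice it read from 9.12 to 9.31 with a median of 9.21, and in sham mice from 9.01 to 9.42 with a median of 9.16. All MI mice lay within the sham range, and 4 of the 5 MI+Val mice lay above the highest MI mouse. The difference MI minus sham was 0.01 (standard error 0.087, 95% interval -0.17 to 0.19, adjusted p = 0.979), and MI+Val minus MI was 0.18 (standard error 0.091, 95% interval -0.01 to 0.37, adjusted p = 0.545).

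Sgcb was the member with the smallest p between MI+Val and MI, with 856 of 8236 genes below it. At the unadjusted p under 0.01 that the methods name, the methods' t-test took 198 genes in that comparison, Sgcb among them, whose adjusted p in the same test was 0.392. The methods also require a gene to pass the F test and a minimum fold, steps not applied to that count, and Sgcb did not pass the F test here (adjusted p = 0.415 in limma). The second Sgcb probe, ILMN_1222716, did not follow it. It read 10.55, 10.69, 10.54, 10.74 and 10.58 in MI+Val mice, from 10.48 to 10.63 in MI mice and from 10.32 to 10.79 in sham mice. Its MI+Val minus MI difference was 0.06 (adjusted p = 0.938 in limma over every probe). Over the 17 arrays both probes correlated at r = -0.24.

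Sgcd, which encodes delta-sarcoglycan, was read close to the limit of the filter. Of its 3 probes, 1, ILMN_2605539, passed the filter, with bead signals of 131.5 to 148.5 in MI+Val, 103.2 to 172.3 in MI and 128.9 to 151.8 in sham mice. On the log2 scale it read 5.95, 5.60, 5.70, 5.98 and 5.97 in MI+Val mice, from 5.42 to 5.87 in MI mice with a median of 5.74, and from 5.37 to 6.05 in sham mice with a median of 5.79. The groups overlapped. Between MI and sham the difference was -0.08 (95% interval -0.34 to 0.18, adjusted p = 0.773) and MI+Val minus MI was 0.17 (95% interval -0.10 to 0.43, adjusted p = 0.742). The offset added before the log makes differences of so dim a probe smaller.

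Dag1 encodes dystroglycan, the precursor of both the laminin receptor and its membrane anchor. Its representing probe, ILMN_2853957, read 8.77, 8.95, 8.75, 7.74 and 8.70 in MI+Val mice. In MI mice it read from 8.27 to 8.69 with a median of 8.60, and in sham mice from 7.97 to 8.70 with a median of 8.36. MI+Val mouse 4 stood far below the other treated mice and below every sham mouse. The mean of MI mice exceeded that of sham mice by 0.17 (standard error 0.171, 95% interval -0.18 to 0.53, adjusted p = 0.624).

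For Dag1, MI+Val minus MI was 0.05 (95% interval -0.32 to 0.43, adjusted p = 0.954), and it was 0.26 (adjusted p = 0.584) without MI+Val mouse 4. MI+Val minus sham was 0.23 (adjusted p = 0.845), and it was 0.44 (adjusted p = 0.460) without that mouse. The second probe, ILMN_2724585, read 9.48, 9.39, 9.29, 8.82 and 9.31 in MI+Val mice, from 8.92 to 9.26 in MI mice and from 8.89 to 9.20 in sham mice. The same mouse was lowest there too. MI minus sham was 0.03 and MI+Val minus MI 0.17 for this probe (adjusted p = 0.965 and 0.830), and both probes correlated at r = 0.73.

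Dtna encodes alpha-dystrobrevin, a cytoplasmic relative of dystrophin that binds dystrophin and the syntrophins. Of its 6 probes, 2 passed the filter. The representing probe, ILMN_1221805, read 10.37, 10.49, 10.38, 10.66 and 10.31 in MI+Val mice, from 10.36 to 10.83 in MI mice with a median of 10.46, and from 9.85 to 10.72 in sham mice with a median of 10.40. Sham mice spread over most of that span and the groups overlapped. Between MI and sham the difference was 0.17 (standard error 0.132, 95% interval -0.11 to 0.44, adjusted p = 0.521) and MI+Val minus MI was -0.09 (95% interval -0.38 to 0.20, adjusted p = 0.872).

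The second Dtna probe, ILMN_2724339, read 9.42, 9.64, 9.71, 9.62 and 9.52 in MI+Val mice, from 9.64 to 9.95 in MI mice and from 9.36 to 9.91 in sham mice. The differences were 0.16 for MI minus sham (adjusted p = 0.620) and -0.19 for MI+Val minus MI (95% interval -0.40 to 0.02, adjusted p = 0.797) in the model over every probe. Both probes correlated at r = 0.76 over the 17 arrays.

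**Figure D4:**
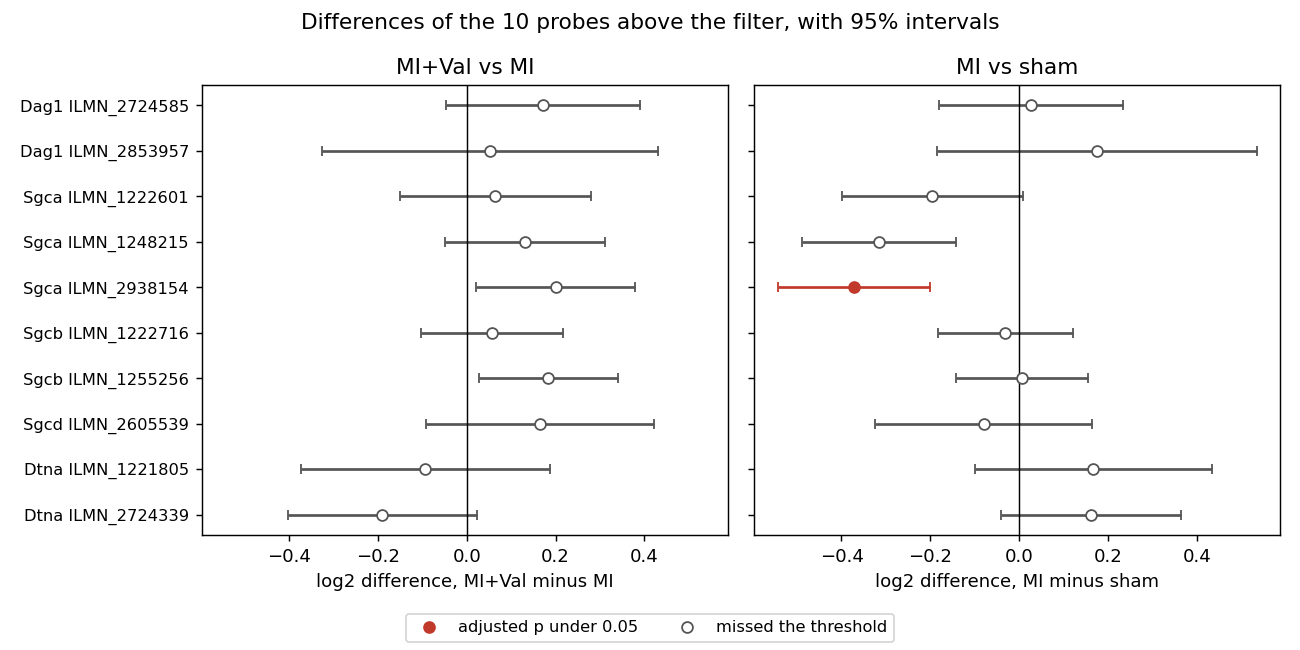
Log2 difference (x axis) of each of the 10 member probes above the filter (y axis) for MI+Val minus MI (left) and MI minus sham (right), from the model over every probe. Points are estimates, lines are 95% intervals, and the filled point, Sgca ILMN_2938154 at -0.37, is the 1 probe that passed an adjusted p under 0.05.

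Dystrophin itself could not be followed. The 3 Dmd probes had signals of 85.7 to 116.5 over the 17 arrays and were not well above background on any of them, with 0 of 51 readings at a detection p under 0.01. The 5 probes of Utrn, which encodes utrophin, had signals of 81.8 to 134 and 1 of 85 readings passed, in 1 MI mouse. The 1 probe of Sgce, which encodes the broadly expressed epsilon-sarcoglycan, had signals of 84.3 to 122 and 0 of 17 readings passed. A further 2 probes of Sgcd and 4 of Dtna missed the filter, with 0 of 34 and 1 of 68 readings passing. Folds of these 15 probes are not read as differences, and a difference in their transcripts was not detectable here. Of the label under which the 8 genes are grouped, the data therefore cover dystroglycan, 3 sarcoglycans and dystrobrevin, but not dystrophin.

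Pearson correlations between their representing probes, over 17 arrays of 3 groups and 3 chips, lay between -0.27 (Dag1 with Dtna) and 0.39 (Sgcb with Dtna). With the group means removed, Sgcb with Dtna had 0.54 and Dag1 with Dtna -0.38. The genes whose pattern over the 17 arrays was most like that of the representing probe of Sgca, among 8231 others, were Gstk1, a mitochondrial and peroxisomal glutathione transferase (r = 0.85), Aldh1l2, a mitochondrial folate enzyme (r = 0.84), and Ttll1, a tubulin polyglutamylase subunit (r = 0.84). With the group means removed these were 0.72, 0.65 and 0.66, and all 3 genes were called lower in MI than in sham mice. Those most like the representing probe of Sgcb were Mrpl13, a mitochondrial ribosomal protein (r = 0.78), Nifk, a nucleolar protein (r = 0.75), and Ubl4a (r = 0.74). The second Sgcb probe had r = -0.24 with that probe, or -0.45 with the group means removed. These are descriptions of the same arrays and carry no test.

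Other subunits of the complex gave no call. Of 11 further subunits listed, 3 were measured, and 0 passed between MI and sham, where 5.63% of all genes did in either direction. Sspn, sarcospan, the small partner of the sarcoglycans, averaged 12.51 ± 0.04 in MI+Val, 12.57 ± 0.19 in MI and 12.67 ± 0.13 in sham mice (SD over 5, 6 and 6 mice), and MI minus sham was -0.10 (adjusted p = 0.592). Sntb2, a syntrophin, had 0.26 for MI minus sham (adjusted p = 0.312) and -0.36 for MI+Val minus MI (adjusted p = 0.447), the largest difference of the 3 in that comparison. Cav3, muscle caveolin, had 0.09 (adjusted p = 0.728) for MI minus sham.

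Among enzymes that build the laminin-binding sugars of dystroglycan, 11 of 17 were measured. Of these 11, 1 fell and 0 rose in MI against sham, where 5.63% of all genes were called in either direction. Pomgnt2, a glycosyltransferase of that pathway, averaged 8.30 ± 0.07 in MI+Val, 8.18 ± 0.06 in MI and 8.46 ± 0.13 in sham mice (SD over 5, 6 and 6 mice). MI minus sham was -0.29 (standard error 0.079, adjusted p = 0.0379). A chip block ended this call (-0.28, adjusted p = 0.126), and the 3 probes of the gene gave between -0.29 and -0.15. The median of the 11 enzymes was -0.03. Rxylt1 had 0.17 (adjusted p = 0.386) and Gmppb -0.21 (adjusted p = 0.506).

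Of 12 matrix ligands and basement membrane partners, 9 were measured. In MI against sham 1 of the 9 rose and 0 fell, where 5.63% of all genes were called in either direction. Bgn, the proteoglycan biglycan, which binds dystroglycan and sarcoglycans, averaged 12.14 ± 0.26 in MI+Val, 12.51 ± 0.14 in MI and 11.55 ± 0.17 in sham mice (SD over 5, 6 and 6 mice). MI minus sham was 0.96 (standard error 0.116, adjusted p = 8.2e-05), and MI+Val minus MI was -0.37 (adjusted p = 0.334, unadjusted p = 0.0060 in limma). Lama5, a laminin alpha chain, had -0.66 for MI minus sham (adjusted p = 0.0691) and Lamb2, a laminin beta chain, -0.28 (adjusted p = 0.336). The median of the 9 was 0.04.

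Among genes that tie the membrane to the contractile cells' cytoskeleton at the costamere, 15 of 19 were measured. In MI against sham 1 of the 15 was lower and 0 higher, where 5.63% of all genes were called in either direction. Itga7, the alpha chain of the muscle laminin receptor integrin alpha7beta1, averaged 9.48 ± 0.10 in MI+Val, 9.33 ± 0.09 in MI and 9.78 ± 0.17 in sham mice (SD over 5, 6 and 6 mice). MI minus sham was -0.45 (standard error 0.089, adjusted p = 0.0054), or -0.46 under a chip block (adjusted p = 0.0236). MI+Val minus MI was 0.15 (adjusted p = 0.669). Ilk, a kinase-like partner of integrins, had 0.17 for MI minus sham (adjusted p = 0.240) and Des, the intermediate filament desmin, 0.22 (adjusted p = 0.172), and the median of the 15 was 0.01.

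No gene of membrane repair passed, of 10 listed and 8 measured, with a median of 0.12 for MI minus sham. Cavin1, a coat protein of caveolae, had 0.46 (adjusted p = 0.186) for its representing probe and -0.10 for the other, and Anxa1, an annexin, 0.38 (adjusted p = 0.427), while Ehd2 had 0.19 (adjusted p = 0.617) for its representing probe and down to -0.26 over its 3 probes. Of 8 proteases and inhibitors that act on the complex or its surroundings, 6 were measured. In MI against sham 2 of the 6 rose and 0 fell, where 5.63% of all genes were called in either direction. Mmp2, a gelatinase that can cleave dystroglycan, was higher by 0.50 (standard error 0.096, adjusted p = 0.0045), and Timp1, an inhibitor of such proteases, by 2.07 (standard error 0.255, adjusted p = 1.0e-04). Mmp14 had 0.27 (adjusted p = 0.386). Between MI+Val and MI no gene of these 6 lists passed, where 0% of all genes did. In limma, Timp1 had -1.05 (adjusted p = 0.233, unadjusted p = 0.00088) and Mmp2 -0.20 (adjusted p = 0.552, unadjusted p = 0.059). The paper called genes at another threshold, a pairwise p under 0.01 after an F test and a minimum fold. It places Timp1, Mmp2 and Bgn in a cluster described as down-regulated with valsartan.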

How the data were processed

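RNA of 17 hearts was measured on MouseWG-6 BeadChips. The authors deposited 1 intensity per probe and array, the mean over its beads with no background taken off, and a detection p-value set by the negative controls. They also deposited log2 values, variance stabilized and normalized by robust splines, which served as an alternative; their array medians were 7.36 to 7.37, and each array correlated at 0.991 or more with the log2 signal. The submitters' processing notes name lumi and R 3.0.1.

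Here neqc of limma 3.58.1 (R 4.3.3) took the background from those p-values and, after an offset of 16 and quantile normalization, gave log2 values. Probes with 1 symbol (34885; 18 had several and 10378 none) had to reach a signal of 125 at percentile 33, and each gene was represented by the probe of widest interquartile range (8236 genes). One limma model held the 3 groups, with Benjamini-Hochberg adjustment (pairs under 0.05, F test under 0.10). A second model held every probe. Detection meant a p under 0.01. Between arrays r was 0.966 to 0.990, so none was a duplicate. The model was tested on simulated data.

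The members, the gene lists and the tests were chosen with earlier results of these data known. Genes named beside the members were, from each list, up to 3 with the smallest p between MI and sham and the 1 with the smallest between MI+Val and MI, and, for Sgca and Sgcb, the 3 genes most correlated. Alternatives changed background correction, normalization, filters, probe per gene, chip or replicate blocks, array weights, samples, test, threshold and each mouse. The variance filter was written from the description in the methods and left 2604 genes, far fewer than the study kept, so it does not stand for the filter of the authors. Further markers of smooth muscle (6 of 8 measured, median -0.18 between MI and sham) and endothelium (7 of 8, median -0.03) gave 0 calls there, and 0 of the listed Schwann cell markers was measured. Plots used Python 3.11.15 with matplotlib 3.10.9.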

Additional observations from a re-analysis of the deposited data

Results flagged for a closer look

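The Dag1 probe ILMN_2853957 read 7.74 in MI+Val mouse 4, on the third chip, apart from the other 4 treated mice, whose values lay between 8.70 and 8.95. The gap to the nearest mouse was 0.799 of the range of the group. Of 30 groups of values examined for such a gap (10 probes in 3 groups), 1 showed one, and chance alone gives about 1 in 20. The second Dag1 probe was also lowest in that mouse, at 8.82.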

How the results depend on the processing

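With no background correction, array weights or an adjusted p under 0.10, 2 member probes were called between MI and sham, and with 75th percentile scaling or the methods' t-test 0 were, against 1 as reported; ILMN_2938154 of Sgca then had -0.40 and -0.37 in those last settings. In the gene fit, 1 member, Sgca, was called between MI and sham with no background correction, deposited log2 values, an offset of 50, detection on all arrays, the brightest probe, the mean of probes, array weights, the methods' t-test or the threshold of 0.10, and 1 in the F test with no background correction, deposited values, the brightest probe, the mean of probes or array weights. Sgca did not pass the variance filter. Over all genes, MI vs. sham gave 464 calls, against 245 with the variance filter, 187 with chip as a fixed block and 766 at 0.10, and the F test 395, against 208 with the variance filter, 193 with chip as a fixed block and 208 at 0.05.

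MI+Val vs. MI gave 0 genes, against 10 with no background correction, 10 with deposited values, 8 with an offset of 50, 2 with 75th percentile scaling, 4 with the variance filter, 1 with the brightest probe, 2 with the mean of probes, 7 with array weights and 5 at 0.10, and none of these was a member. MI+Val vs. sham gave 1 gene, against 2 with no background correction, an offset of 50, 75th percentile scaling, the brightest probe or the mean of probes, 6 with deposited values, 7 with the variance filter, 4 with chip as a fixed block or at 0.10, 3 with array weights and 0 with the replicate block, the 2 groups alone or the t-test.

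Leaving out 1 mouse in turn gave 259 to 521 genes for MI vs. sham, 0 to 14 for MI+Val vs. MI, 0 to 3 for MI+Val vs. sham and 226 to 454 for the F test. Members called were 0 to 1 for MI vs. sham and 0 to 0 for the other tests, member probes 0 to 1, and ILMN_2938154 lay between -0.42 and -0.33. Without MI+Val mouse 5 the 14 genes arose.

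Differences near 0 changed sign, as did those of Dtna where a probe below the filter stood for it. For MI minus sham, Sgcb had -0.017 with 75th percentile scaling, -0.023 with chip as a fixed block, -0.032 with the brightest probe, -0.012 with the mean of probes and -0.032 to 0.050 with a mouse left out. Without the filter a dim probe, ILMN_2625949, stood for Dtna. It gave -0.26 for MI minus sham, 0.16 for MI+Val minus MI and -0.11 for MI+Val minus sham. Of its readings 0 of 17 passed detection, so these values are not read as differences of Dtna. With the filter, 75th percentile scaling gave Dtna -0.076 for MI+Val minus sham, where a mouse left out gave -0.030 to 0.14. Dag1 had -0.038 to 0.26 for MI+Val minus MI with a mouse left out. The cause was not tested. The other 458 values of single members kept direction and side of the threshold.

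Of 16 pairs of arrays with the same replicate number in different groups, 4 deviated together (r over 0.1), and r lay between -0.20 and 0.43. Pairs of differing number were not compared, so this count cannot tell whether the numbers pair the mice. With the replicate block, MI vs. sham called 467 genes, of which 391 were shared with the 464, and Sgca kept -0.32 (adjusted p = 0.0592). The fit on filtered probes alone and the fits on single Sgca probes were added after seeing the data. Signals near background limit Dmd, Utrn, Sgce and Sgcd.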
